A study of Mus musculus with 4 samples.

Results

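The genes described here are 8 neuronal genes whose products leave the cell or act on secreted proteins, and whose transcription is known to be raised by synaptic activity: Bdnf, Inhba, Nrn1, Vgf, Scg2, Pcsk1, Nptx2 and Cyr61. They were taken by gene name from the scanner files, where 11 probes carry these names, and they are 8 of the 20655 named genes that were measured on every array. All 11 probes were marked well above background on all 4 arrays, so no member was lost to the filter on dim signals. The list was drawn up with the diet and genotype differences of these same arrays known, so the genes count as selected on those differences, and their values are a description without a test.

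RNA came from the prefrontal cortex of B6J mice aged 3 months, in 4 groups. The groups were wild-type mice on starch, wild-type mice on sucrose, mice heterozygous for Glo1 on starch and mice heterozygous for Glo1 on sucrose. Glo1 encodes glyoxalase 1, an enzyme that removes the reactive sugar by-product methylglyoxal. Either diet was given for about 70 days beginning at postnatal day 21, the day of weaning, and the tissue was dissected after the mice were killed by cervical dislocation. RNA from 3 mice made up 1 pool and went onto 1 array for each group, so a group is 1 value with no animal-to-animal spread. The 4 arrays lie on 1 slide, and the effect of position on it cannot be told apart from that of the group. No group has a replicate, and no p-value is given for any difference. In whole tissue, fewer cells that express a gene and less RNA per cell cannot be told apart either.

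Neurons that receive strong synaptic input switch on transcription factors within minutes, and these, together with CREB, raise a second set of genes whose products act on synapses, neighbouring cells and vessels. BDNF is a neurotrophin that strengthens synapses through its receptor TrkB. Inhba encodes the subunit of activin A, neuritin (Nrn1) promotes neurite growth, and VGF and secretogranin II (Scg2) are cut into peptides by convertases such as the Pcsk1 product. Neuronal pentraxin 2 (Nptx2) gathers AMPA receptors at synapses, and Cyr61, also called Ccn1, is a matrix-associated protein made by neurons and by vascular cells.

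CREB binds the palindromic cAMP response element, and the stretches upstream of the members' start sites are shown because 4 of the 5 members with a sequence in the RefSeq promoter table (build GRCm38.p6) hold this element or its 5-base core. In each, the 250 bases before a start site are given 5′ to 3′ on the gene's own strand, with TGACGTCA and the core TGACG, searched on both strands, in capitals. The core lies within the full element, so each full element counts as 2 cores.
Scg2 (chr1:79440027-79440276, minus strand): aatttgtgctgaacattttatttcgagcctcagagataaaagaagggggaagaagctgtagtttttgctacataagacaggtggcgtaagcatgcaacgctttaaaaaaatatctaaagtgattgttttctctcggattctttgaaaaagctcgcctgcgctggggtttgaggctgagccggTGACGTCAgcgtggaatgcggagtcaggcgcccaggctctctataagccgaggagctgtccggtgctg
Pcsk1 (chr13:75089607-75089856, plus strand): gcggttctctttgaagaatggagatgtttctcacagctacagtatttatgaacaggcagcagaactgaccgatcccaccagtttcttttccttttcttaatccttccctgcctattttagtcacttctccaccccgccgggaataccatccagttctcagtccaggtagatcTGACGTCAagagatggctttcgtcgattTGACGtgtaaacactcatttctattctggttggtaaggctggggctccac
Cyr61 (chr3:145649986-145650235, minus strand): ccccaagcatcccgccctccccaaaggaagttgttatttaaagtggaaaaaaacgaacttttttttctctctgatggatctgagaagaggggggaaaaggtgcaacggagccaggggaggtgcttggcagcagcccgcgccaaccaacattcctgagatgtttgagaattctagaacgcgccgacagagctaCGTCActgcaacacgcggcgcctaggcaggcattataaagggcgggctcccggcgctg
Bdnf, the third of 7 start sites in the table (chr2:109692186-109692435, plus strand): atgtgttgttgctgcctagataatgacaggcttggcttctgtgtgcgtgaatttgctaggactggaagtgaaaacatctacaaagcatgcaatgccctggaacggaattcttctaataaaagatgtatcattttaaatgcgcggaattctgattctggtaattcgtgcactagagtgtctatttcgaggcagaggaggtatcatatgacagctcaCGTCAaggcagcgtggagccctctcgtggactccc

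The full element was found upstream of Scg2, where it begins 68 bases before the start site, and of Pcsk1, where it begins 78 bases before it and is followed by a separate core. It is present in 1.55% of the 32851 promoters in the table, and the core in 17.8%. The Cyr61 promoter and 1 of the 7 Bdnf promoters hold the core alone. The single Inhba promoter held neither. Counted by promoter, as the background is, 4 of the 11 promoters of these 5 genes hold the core. Of 3 further motifs, the AP-1 site TGANTCA (6.75% of all promoters) was found in 1 Bdnf promoter, while the serum response element known as the CArG box (1.47%) and the EGR site GCGNGGGCG (4.70%) were found in no window of the 5 genes. Nrn1, Vgf and Nptx2 are named only. These matches describe the sequence, and binding was not measured.

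Signals are given below as multiples of the 75th percentile of each array's non-control spots, and changes as log2 differences of these signals between 2 arrays, so that -1 is a halving. The share of spots well above background lay between 77.6% and 80.2%, and the percentile itself between 1780 and 1929 intensity units, in both genotypes higher on the sucrose array. The only error that the design allows is that of spots: from probes printed 10 times, the difference between single spots on 2 arrays has an SD of 0.07 in quartile 4 of signal (the brightest), 0.12 in quartile 3 and 0.13 in quartile 2. In quartiles 3 and 2 it rests on only 5 and 3 repeated probes. Spike-in probes with 35 spots each gave 0.08 in quartile 4 and 0.10 in quartile 3. This spot error holds no difference between animals, pools, labellings or slide positions.

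On sucrose, 7 of the 8 members read lower than on starch whichever the genotype, and Nrn1 read higher. The 4 values of each of the 7 did not overlap by diet: both starch arrays lay above both sucrose arrays. Over all genes, 30.2% were lower in both genotypes, 20.1% had both starch arrays above both sucrose arrays and 22% had both below. These shares stand beside the members' counts only as a background, since the list was drawn up with the same values known. The median change of the 8 genes was -0.40 in wild-type and -0.44 in heterozygous mice, against 0.00 over all genes in both. Between genotypes the medians were 0.02 on starch and 0.04 on sucrose, against -0.02 over all genes on each diet. The 2 diet changes share no array, while each genotype change shares an array with each of them.

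**Figure D1:**
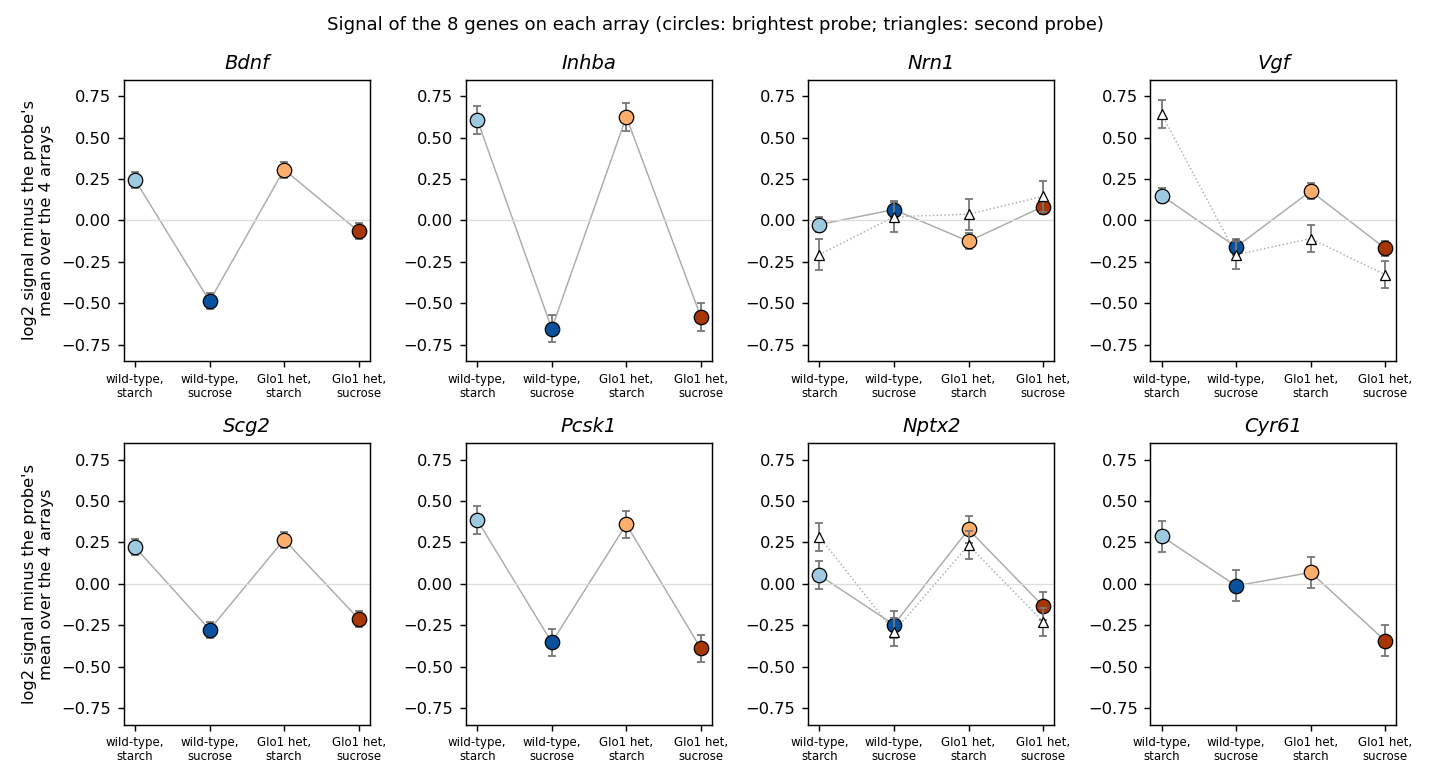
Log2 signal of every probe of the 8 genes on the 4 arrays, each probe centred on its own mean; circles are the brightest probe of a gene, triangles a second probe, and bars the SD of a single spot estimated from repeated spots of probes of like brightness. In 7 genes the brightest probe is higher on both starch arrays than on both sucrose arrays, by the smallest margin for Cyr61 (0.08), while Nrn1 lies slightly higher on both sucrose arrays.

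Inhba had the widest range of the 8 over the arrays. Exon and UTR annotation of that build was not used here, so probes are placed by coordinate and by base of the transcript. Its probe (A_51_P239750, chromosome 13, 16118634 to 16118693, build mm9 as for all probes, from base 1118 of NM_008380) is shown whole because the widest difference rests on it.
Inhba probe: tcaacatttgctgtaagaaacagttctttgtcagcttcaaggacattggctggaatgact
The Inhba signal was 1.85 in wild-type and 1.87 in heterozygous mice on starch, and 0.77 and 0.81 on sucrose. Both sucrose arrays thus stood at 41.7% and 43.3% of the starch array of the same genotype, a difference of -1.26 and -1.21, which is 10.7 and 10.2 times the SD of spots. The groups did not overlap by diet, and the genotypes differed by 0.02 on starch and 0.07 on sucrose. Of 5287 genes in the same quartile of signal, 2, Inhba among them, were at least as low in both genotypes.

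Among the main probes, that of Bdnf had the diet change that differed most between genotypes. Its single probe (A_55_P2036303, chromosome 2, 109566961 to 109567020) begins at base 4062 of NM_007540, far into a transcript that can also end at an earlier polyadenylation site, and so reports only on Bdnf transcripts that reach this point. The second 30 bases of the probe are these.
Bdnf probe, bases 31 to 60: gtaaagatattattcaccatgtaaaacaag
The signal was 1.75 on starch and 1.06 on sucrose in wild-type mice, and 1.83 and 1.41 in heterozygous mice. Both starch values thus exceeded both sucrose values, and the heterozygous sucrose array lay between the wild-type sucrose array and both starch arrays. The diet change was -0.73 for the wild-type pair and -0.37 for the heterozygous one. Their difference of 0.36 was 3.74 times its SD from spots, and the corresponding ratio was at most 1.25 for the main probes of the other 7 genes. The second Vgf probe, described below, had 3.78. On sucrose the heterozygous signal was 0.42 higher than the wild-type one, whereas on starch it was 0.06 higher.

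Nrn1, a membrane-anchored growth factor that can be shed, did not share the pattern. Its brightest probe (A_55_P2822982, of NM_153529, for which the files give coordinates over only 5 bases of chromosome 13) read 15.4 and 14.4 on starch and 16.4 and 16.6 on sucrose, in wild-type and heterozygous mice in that order. The changes of 0.09 and 0.21 were 1.32 and 3.09 times the SD of spots and opposite in sign to those of the other 7 genes, with both sucrose arrays above both starch arrays. A second probe (A_55_P1954378, chromosome 13, 36822427 to 36822486, of the predicted transcript XM_006516738) differed by 0.23 and 0.11, and its arrays overlapped by diet. Over all genes, 30.1% were higher and 30.2% lower on sucrose in both genotypes, so either direction was a common one.

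For the peptide precursors Vgf and Scg2, the main probes hold AATAAA, the letters of the common polyadenylation signal, shown in capitals. The second Vgf probe begins at base 1745 of the same transcript, where the main one begins at base 2484, and is shown whole because it read differently.
Vgf probe A_55_P2085060, bases 31 to 60: tagttttgctaagaAATAAAagtgactatt
Vgf probe A_66_P117361: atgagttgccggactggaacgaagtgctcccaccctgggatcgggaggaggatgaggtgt
Scg2 probe A_55_P1992490, bases 31 to 60: gtggagttctggagcaaaaccAATAAAgca
Scg2, the source of the peptide secretoneurin (chromosome 1, 79431323 to 79431382), read 25.9 and 26.7 on the wild-type and heterozygous starch arrays and 18.4 and 19.2 on the sucrose arrays. Its changes of -0.50 and -0.48 were 7.32 and 7.03 times the SD of spots. Scg2 thus kept 70.8% and 71.8% of its starch signal.

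The brightest Vgf probe (chromosome 5, 137509153 to 137509212) read 38.7 and 39.4 on starch and 31.2 and 31.0 on sucrose. The change was -0.31 in wild-type and -0.35 in heterozygous mice, smaller than that of Scg2 but of the same size in both genotypes. The upstream probe (137508414 to 137508473) read 0.68 on the wild-type starch array and between 0.35 and 0.41 on the other 3. For it the diet changes were -0.85 and -0.22, and the genotype change on starch was -0.75 where the brightest probe gave 0.03. Both probes were lower on sucrose in each genotype, but the size for Vgf in wild-type mice depends on the probe, and the wild-type starch array stands apart on the second one.

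Pcsk1, the prohormone convertase that cuts both precursors, had a diet change of almost exactly the same size in the 2 genotypes. Its probe (A_52_P500979, chromosome 13, 75269727 to 75269786) read 0.68 and 0.67 on starch and 0.41 and 0.40 on sucrose. The changes were -0.74 and -0.75, or 59.9% and 59.5% of the starch signal, and 6.25 and 6.34 times the SD of spots. Pcsk1 and Inhba were the 2 members lower by 1.5-fold or more in both genotypes, as were 0.804% of all genes.

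Nptx2 was measured by 2 probes on chromosome 5, at 145317905 to 145317964 (A_52_P187058, the brighter) and 145317396 to 145317454 (A_66_P140338). The brighter read 0.87 and 1.06 on starch and 0.71 and 0.77 on sucrose, which is -0.30 for the wild-type and -0.46 for the heterozygous pair. The other gave -0.57 and -0.46. Both probes separated the diets without overlap. On starch, the wild-type array stood 0.28 below the heterozygous one by the brighter probe and 0.05 above it by the other.

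Among the main probes, Cyr61 was the only one lower in heterozygous than in wild-type mice on both diets by more than the SD of spots. Its probe (A_51_P252859, chromosome 3, 145310187 to 145310246) read 0.22 and 0.19 on starch and 0.18 and 0.14 on sucrose. The diet changes were -0.30 and -0.41, and those of genotype -0.22 on starch and -0.33 on sucrose, which is 1.67 and 2.54 times the SD of spots. On the log2 scale only 0.08 separated its lower starch array from its higher sucrose array, less than that SD.

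**Figure D2:**
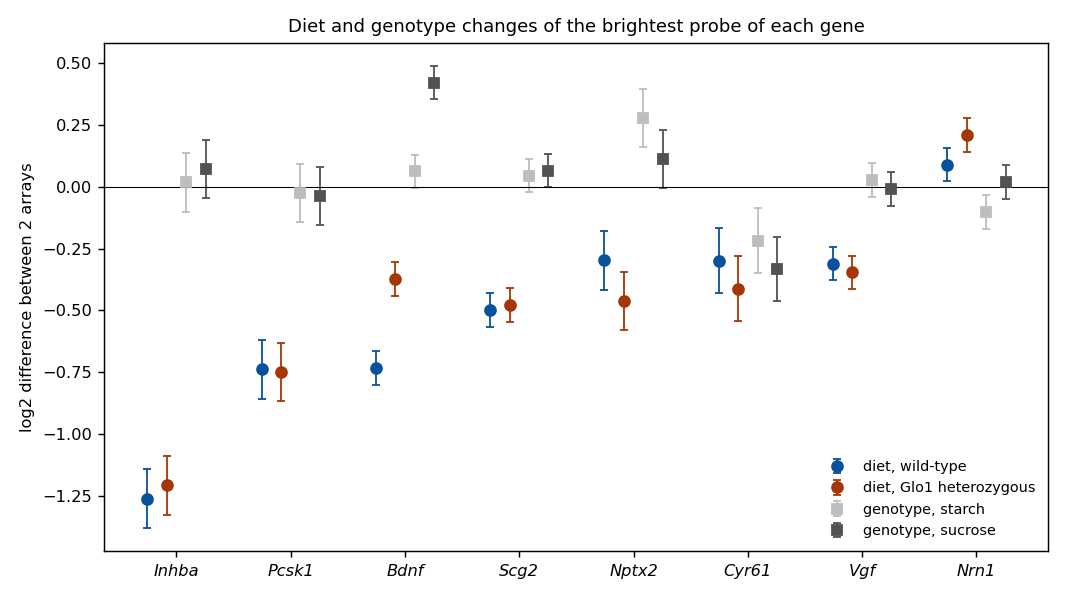
Log2 difference between 2 arrays for the brightest probe of each gene, ordered by the mean diet change; circles are sucrose minus starch, squares heterozygous minus wild-type, and bars the SD of a difference between single spots. The diet changes of Inhba, Pcsk1, Scg2 and Vgf nearly coincide in the 2 genotypes, and the genotype change of Bdnf on sucrose (0.42) stands apart from that on starch (0.06).

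Ordered by the mean of both diet changes, the genes ran from Inhba (-1.23) through Pcsk1 (-0.74), Bdnf (-0.55), Scg2 (-0.49), Nptx2 (-0.38), Cyr61 (-0.36) and Vgf (-0.33) to Nrn1 (0.15). Only the steps from Inhba to Pcsk1 and from Vgf to Nrn1 exceeded 2 SDs of spots, so the order of the 6 genes from Pcsk1 to Vgf is not settled between neighbours. Among the 20655 genes, Inhba had the 53rd lowest mean diet change and Pcsk1 the 222nd. Bdnf stood at 410, Scg2 at 538, Nptx2 at 864, Cyr61 at 982, Vgf at 1129 and Nrn1 at 16726. The order and the ranks are those of the brightest probes. The second probes of Vgf and Nptx2 had mean diet changes of -0.53 and -0.52, near that of Bdnf.

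At a threshold of 1.5-fold and with each gene read by its brightest probe, 3 members (Bdnf, Inhba and Pcsk1) were lower on sucrose in wild-type mice, where 3.53% of all genes were, and 2 (Inhba and Pcsk1) in heterozygous mice, where 2% were. No member was higher by 1.5-fold on sucrose in either genotype, against 2.4% and 3.57% of all genes. Inhba alone was lower by 2-fold, in wild-type mice (0.992% of all genes), in heterozygous mice (0.479%) and so in both (0.111%). No member differed by 1.5-fold between genotypes on starch or on sucrose, where 3.97% and 4.58% of all genes did, nor did the diet change of any member differ by that much between genotypes (8.45% of all genes). The second Vgf probe did pass 1.5-fold for diet in wild-type mice (-0.85), for genotype on starch (-0.75) for the difference between the diet changes (0.63) and, between heterozygous mice on sucrose and wild-type mice on starch, for both factors (-0.97). When diet and genotype both differed (heterozygous on sucrose against wild-type on starch), Inhba (-1.19), Pcsk1 (-0.78) and Cyr61 (-0.63) were lower by 1.5-fold or more, as were 3.39% of all genes, and Inhba by 2-fold (0.654%). With normexp background correction Cyr61 was at -0.56 and no longer passed. That comparison shares an array with each of the others.

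**Figure D3:**
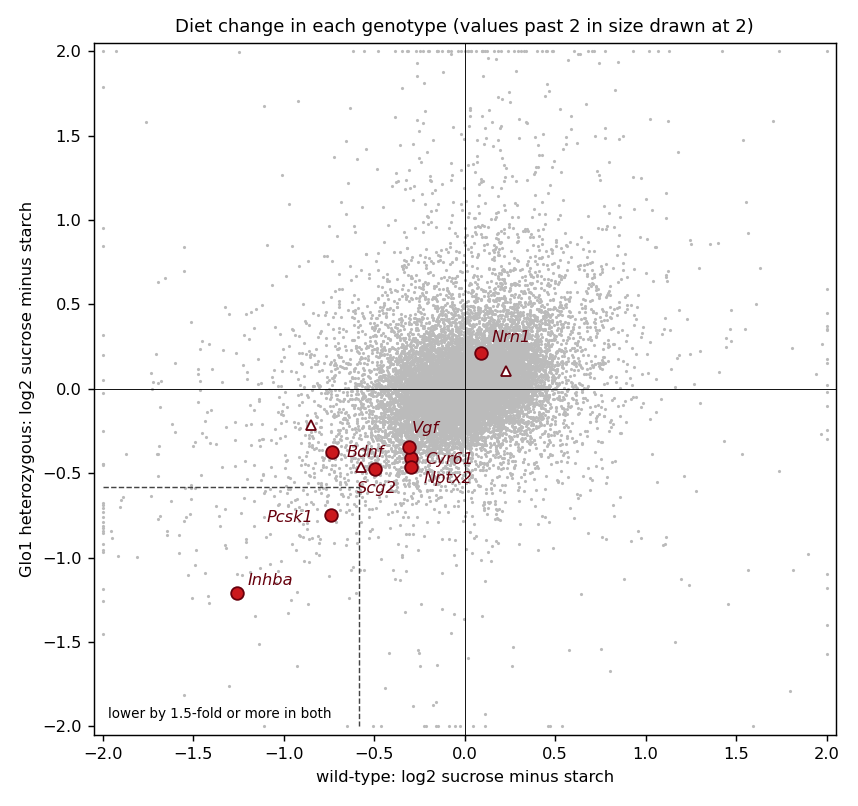
Diet change in wild-type mice (horizontal axis) against that in heterozygous mice (vertical axis), as log2 sucrose minus starch; grey points are all 20655 genes, red circles the brightest probe of each member and open triangles second probes, and the dashed corner marks 1.5-fold lower in both (values past 2 in size are drawn at 2). Inhba and Pcsk1 lie inside the corner, and of the members' probes only the 2 of Nrn1 lie on the upper right.

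Genes known to respond first to synaptic activity were mostly lower on sucrose too. In a list of 13, made up of activity-induced transcription factors and Arc, 12 were lower on sucrose in wild-type mice, 12 in heterozygous mice and 11 in both, with medians of -0.51 and -0.83. Like the members, this list was chosen with earlier results of these arrays known. Over all genes, 30.2% were lower in both genotypes, and 0.804% by 1.5-fold or more. Lower by 1.5-fold or more in both were 6 of the 13: Fos (-0.64 and -1.24), Fosb (-0.86 and -1.03), Fosl2 (-0.87 and -0.83), Egr1 (-0.75 and -1.11), Egr2 (-1.30 and -1.76) and Npas4 (-0.81 and -0.87). Egr4 (-0.35 and -0.69), Nr4a1 (-0.51 and -0.71) and the synaptic protein gene Arc (-0.46 and -1.01) were lower in both and past 1.5-fold in heterozygous mice. Nr4a2 (0.25 and -0.34) and Nr4a3 (-0.36 and 0.03) were each lower in only 1 genotype. The median difference between the diet changes of the genotypes was -0.34 for this list and 0.00 for the members, a contrast that was not tested.

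Receptors, relatives and partners of the members had diet medians nearer to 0. In the list of neurotrophins, receptors and processing proteins, 3 of 9 measured genes read lower with sucrose in both genotypes and none by 1.5-fold, and the BDNF receptor gene Ntrk2 differed by -0.15 and -0.20. Ntf3, which encodes neurotrophin 3, was higher on sucrose by 0.64 and 1.98, and Ntf5, another neurotrophin gene, by 0.53 and 1.66, in quartile 1 of signal, for which no repeated probe gives a spot error.

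For the activin pathway, 4 of 14 genes were lower in both genotypes and none passed 1.5-fold in any direction. The receptor gene Acvr2a differed by -0.00 and 0.13, the activin-binding inhibitor Fst by 0.05 and -0.15, and Inhbb, which encodes the other main activin subunit, by -0.04 and -0.11. None of these differences came near that of Inhba in size.

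Among the pentraxin and AMPA receptor genes 2 of 5 were lower in both, and Nptx1, which encodes another neuronal pentraxin, differed by 0.21 and 0.51. The array's gene names did not include Nptxr. Of 10 granins and peptide-processing genes, 2 were lower in both and none by 1.5-fold. Chgb, a granin like Scg2, differed by 0.07 and 0.06, and Pcsk2, the other neuronal convertase, was higher on sucrose by 0.29 and 0.27, opposite to Pcsk1. In the list of CCN genes, integrins and the neuritin relative Nrn1l, 4 of 9 were lower in both. Ctgf, a close relative of Cyr61, differed by 0.06 and -0.87, and Wisp1 by -0.53 and -0.76.

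**Figure D4:**
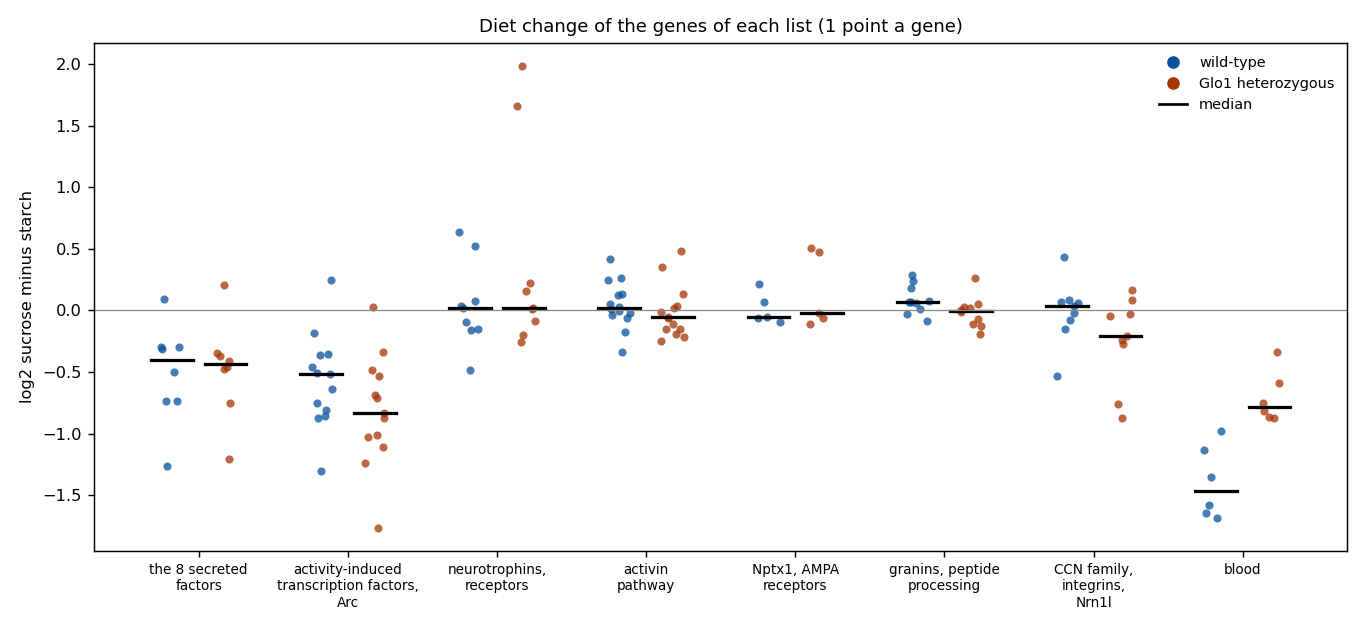
Log2 sucrose minus starch for each gene of the members, of the 6 lists of related genes and of a blood list, in wild-type (blue) and heterozygous (brown) mice; each point is 1 gene and the bar the median. The members and the activity-induced transcription factors lie mostly below 0 in both genotypes, and the blood genes lie below 0 throughout. The medians of the other lists lie nearer to 0, farthest from it for the CCN list in heterozygous mice (-0.21). Single genes of these lists, such as Ntf3 (0.64 and 1.98), lie well away from 0.

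All 10 cortical excitatory neuron markers were measured, and none was lower on sucrose in both genotypes, against 30.2% of all genes. Their medians were 0.31 and 0.06. Blood genes were lower with sucrose as well, 6 of 6 in each genotype, with medians of -1.46 and -0.78, and their summed signal was 163.9 and 137.5 on the starch arrays against 76.4 and 87.5 on the sucrose arrays. None of the 6 was at background on any array, and their part in the members' differences was not tested. Striatal markers did not follow diet: 11 of 11 were higher on sucrose in wild-type mice and 11 of 11 lower in heterozygous mice, with medians of 0.88 and -0.92. All 9 measured choroid plexus markers read higher on sucrose in heterozygous mice, and the summed signal was 69.9 on that array and between 0.98 and 2.41 on the other 3. The part of striatal and choroid plexus tissue in the members' differences was not tested.

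Cyr61 is also expressed in vessels, and vascular, meningeal and glial markers were read alongside it. The share of all genes lower on sucrose in both genotypes was 30.2%. Of 8 mural cell markers 3 were lower in both genotypes, with medians of 0.00 and -0.01 and a summed signal between 9.67 and 10.4. Of 8 endothelial markers 3 were lower in both (medians -0.01 and -0.14). The summed signal of the 8 was 32.5 and 29.3 on starch against 24.2 and 24.1 on sucrose. Most of that fall lay in Ly6c1 (-0.67 and -0.39), the brightest of the 8 on every array, so the sum largely follows this gene. Among meningeal fibroblast markers 1 of 8 was lower in both, with medians of 0.08 and 0.07. The medians were -0.18 and -0.11 for 8 astrocyte, -0.10 and -0.06 for 8 oligodendrocyte, -0.11 and -0.04 for 8 microglia and -0.01 and -0.12 for 8 interneuron markers. The part of these cells in the Cyr61 difference was not tested.

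For the 3 members with the widest range, the genes with the most similar pattern over the 4 arrays were sought among the other 20654, by the root mean square difference of the centred log2 values. With 4 arrays many genes can match any pattern closely. For Pcsk1 they were Itih2 (0.04), Hspa5 (0.04), which encodes the main chaperone of the endoplasmic reticulum, and Creld2 (0.04). Hspa5 read 25.9 and 25.8 on starch and 16.5 and 16.1 on sucrose, a diet change of -0.65 for the wild-type and -0.68 for the heterozygous pair. For Bdnf they were Sall3 (0.03), Aim1 (0.03) and Slc6a12 (0.03), and for Inhba the array names 9530076L18 (0.07), F630201L12Rik (0.09) and 9130008F23Rik (0.11). Of the matches of Inhba, 9530076L18 is in quartile 2 of signal. F630201L12Rik and 9130008F23Rik read between 0.01 and 0.03, in quartile 1, for which no repeated probe gives a spot error.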

How the data were processed

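Each of the 4 one-colour Agilent arrays carried Cy3-labelled cRNA made from 200 ng of pooled RNA, per the labels. Per the file headers, the deposited intensity values were made with Agilent Feature Extraction 11.5.1.1, with background subtraction, spatial and multiplicative detrending within the array and surrogates for low values. The deposited series matrix holds a ratio, which on comparison equalled the processed signal divided by the array's 75th percentile. Probe coordinates are those of the files (mm9).

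Here each processed signal was divided by the 75th percentile of its array's non-control spots and taken to log2. Outlier spots were left out, 42094 of 56605 probes were well above background on all 4 arrays, and the brightest such probe stood for its gene. The 20655 genes' names were kept as in the files, 18294 being current symbols in RefSeq GRCm38.p6 and 872 older ones. Changes are differences of single arrays and carry no p-value. The code was tested on simulated data. The members and lists were chosen with earlier results of these data known. Named in the text were all members, 9 fixed relatives, genes of the related lists past 1.5-fold in a pairwise comparison, and the 3 most similar genes for each of 3 members. Wisp1 passed by this rule in heterozygous mice, and Ly6c1, Gad1, Nr4a2 and Nr4a3 were named after their values were seen. The 7 alternatives tried were median scaling, quantile normalization, normexp in limma 3.58.1, the mean over probes, no filter, outlier spots kept and the series matrix values, besides a 2-fold threshold. The calculations used Python 3.11.15 and R 4.3.3.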

Additional observations from a re-analysis of the deposited data

Results flagged for a closer look

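With 1 array in each group, the genotype change of some named genes had opposite signs on the 2 diets, each larger than the SD of spots, and the difference was not tested. None of these genes is 1 of the 8 secreted factors. The heterozygous minus wild-type change was 0.35 on starch and -0.20 on sucrose for Arc, a difference of -0.55. It was 0.27 and -0.33 for Fos (difference -0.60), 0.32 and -0.13 for Egr2 (-0.46), and 0.26 and -0.08 for Egr4 (-0.34). Ctgf had changes of 0.26 and -0.67 (difference -0.93), and Ntf3 had -0.25 and 1.09 (difference 1.35). On the same arrays the median genotype change was 0.84 on starch and -1.21 on sucrose for the 11 striatal markers, and -0.05 and 3.67 for the 9 choroid plexus markers. Their part in these differences was not tested.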

How the results depend on the processing

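No paired analysis was possible because each group had 1 array and the labels give no replicate numbers. Of the 7 alternatives, 3 (no filter, outlier spots kept and the series matrix) moved no value of the 8 genes by over 0.001, and the mean over probes could move only the 3 genes with a second probe. Where an alternative had an effect, the diet changes kept their sign in 54 of 54 values, and 146 of 162 values over all 6 comparisons moved by less than the SD of spots. Inhba stayed between -1.26 and -1.17 in wild-type and between -1.24 and -1.17 in heterozygous mice. At 2-fold in place of 1.5-fold, the number of lower members was 1 for diet in wild-type mice, 1 in heterozygous mice, 1 in both and 1 for the change of both factors. With the mean over probes, the median of the 8 genes moved from -0.40 to -0.54 for the wild-type diet change and from -0.38 to -0.53 for the change of both factors, where Vgf averaged with its second probe was at -0.58 and -0.64. The number lower by 1.5-fold for the change of both factors was 2 with normexp and 4 with the mean over probes, against 3. That last setting also turned the genotype change of Vgf on starch to -0.36 and that of Nrn1 to 0.07, and the difference between the diet changes to 0.30 for Vgf and -0.00 for Nrn1. The near-zero median of the genotype change on sucrose ranged from -0.00 to 0.07, so its sign is not settled. Precision is limited by the single array of each group, and for Cyr61 also by its low signal.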
